A study of Mus musculus with 6 samples.

Results

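The genes examined here are 10 genes of the Nrf2 antioxidant and glutathione system, chosen by symbol from a gene count table of 25701 genes. They are *Nfe2l2*, *Keap1*, *Nqo1*, *Gclc*, *Gclm*, *Gsr*, *Txnrd1*, *Srxn1*, *Prdx1* and *Gpx4*, and all 10 were listed there with enough counts to be tested. Poly-A RNA was sequenced from CD11b+ cells purified with magnetic beads from TC1 tumors, in 3 MCT2 CO and 3 MCT2 KO libraries. Both groups were mice on a C57BL/6 background with loxP sites in *Slc16a7*, the MCT2 gene, and a Cre recombinase activated by tamoxifen. MCT2 KO mice received tamoxifen at 8 weeks of age and MCT2 CO mice vehicle alone, so the deletion and the drug cannot be told apart. TC1 cells are a tumor line of mouse lung epithelium. They were injected under the skin of the flank 2 days later and left to grow for 24 days, and they carry none of the engineered alleles. Induction was systemic, so every host cell type could lose MCT2. Lung is given as the tissue in the sample records, although the tumors grew in the flank. The sources do not state that each library is 1 mouse, so p-values measure the spread between these libraries, which may in part be technical.

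Nrf2, encoded by *Nfe2l2*, is the transcription factor that switches on antioxidant genes. Keap1 binds it and hands it to a Cul3 ubiquitin ligase for destruction, until oxidants or electrophiles modify cysteines of Keap1 and Nrf2 accumulates in the nucleus. There it pairs with a small Maf protein on antioxidant response elements, which Bach1 occupies as a repressor. Much of the control of Nrf2 is on the protein, so its target mRNAs are the usual readout. The targets make and recycle glutathione and thioredoxin, the thiols that cells spend on peroxides. In macrophages the system accompanies the oxidative burst, heme uptake and the restraint of inflammatory cytokine genes.

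The core of the antioxidant response element, TGACNNNGC, was searched on both strands of RefSeq promoter windows of GRCm38.p6, which run from 250 bases before to 50 bases after each annotated start. Windows were listed for 8 of the 10 genes, 13 windows in all, and not for *Gclc* and *Gsr*. The motif stood in 1 window each of 5 genes, and in 12.4% of all 32851 windows of the same length. These 5 matches are shown with 10 bases on either side, because the motif is one through which Nrf2 is known to act. The match is in capitals, and each sequence is written in the direction in which the motif reads.
*Nfe2l2* (chr2:75704885-75704913, minus strand): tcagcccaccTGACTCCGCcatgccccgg
*Gclm* (chr3:122245413-122245441, minus strand): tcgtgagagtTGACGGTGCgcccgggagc
*Prdx1* (chr4:116685456-116685484, minus strand): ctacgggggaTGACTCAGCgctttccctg
*Txnrd1* (chr10:82859104-82859132, minus strand): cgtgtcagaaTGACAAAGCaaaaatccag
*Srxn1* (chr2:152105542-152105570, minus strand): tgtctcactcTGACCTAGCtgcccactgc

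The matches began 240, 134, 133 and 92 bases before the start of their window's transcript in *Nfe2l2*, *Gclm*, *Prdx1* and *Txnrd1*, and 28 bases after it in *Srxn1*. For *Txnrd1* that window, 82858956 to 82859255, belongs to a start inside the gene. The window at the gene's first base, 82833701 to 82834000, and the remaining one had no match. The match of *Prdx1* also holds TGACTCA, the binding site of AP-1 factors, so the letters do not separate the motifs. *Nqo1*, *Keap1* and *Gpx4* had no match in these windows. A match is a description of the sequence and not a measured binding site.

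The libraries held 24863611 to 31713704 counts, with 164 to 12183 counts for each of the 10 genes. MCT2 CO replicate 3 and MCT2 KO replicate 2 stood apart from the other libraries on the first and second principal component, respectively. *Slc16a7*, the deleted gene, had 16.04, 11.04 and 11.2 CPM (counts scaled to library size with TMM normalization) in MCT2 CO and 8.22, 4.97 and 5.34 CPM in MCT2 KO. Its log2 fold change was -1.05 (95% interval -1.60 to -0.51, adjusted p = 0.370 by edgeR's quasi-likelihood test), and every MCT2 KO library lay below every MCT2 CO library. Of 13 macrophage and monocyte markers, 12 were tested, and their summed level was 5852 to 7973 CPM in MCT2 CO and 6940 to 11175 CPM in MCT2 KO. *Itgam*, which encodes CD11b, was at or near 0 in all 6 libraries, and 99.1% of its exons lie inside the span of *Gm49368*, so this table does not measure it. Keratins of epithelial cells, *Krt8*, *Krt18*, *Krt19* and *Krt7*, were at 0.201 CPM or less in every library, but *Cdh1*, which encodes E-cadherin, had 13.2 to 20.01 CPM in MCT2 CO and 17.9 to 32.03 CPM in MCT2 KO. The 9 epithelial markers summed to 17.8 to 26.2 CPM in MCT2 CO and 24.3 to 39.8 CPM in MCT2 KO, and the 3 that were tested overlapped between the groups. Collagen and other fibroblast markers were not near 0: the 8 of the list summed to 2070, 2264 and 3424 CPM in MCT2 CO and to 1837, 1842 and 1728 CPM in MCT2 KO. The paper states that telling TC1 cells from host stromal cells for certain would need further analyses. Which of these cells the fibroblast marker RNA came from was not determined here. In such bulk samples, fewer cells of a type and less RNA per cell cannot be told apart.

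No difference between MCT2 KO and MCT2 CO was called for any of the 10 genes. A call required an adjusted p of 0.05 or less together with a log2 fold change of 0.58 or more in either direction, and edgeR's quasi-likelihood test called 0 of the 10 and 0% of the 13485 genes tested. DESeq2 called 0 of the 10, with 0.448% of all detected genes called and 0.586% of the genes that edgeR tested, and limma-voom called 0 genes in all. Without adjustment, 0 of the 10 had p under 0.05, beside 9.37% of all genes tested. In all 10 the libraries of the groups overlapped, whereas they did not overlap in 15.8% of all genes tested. The log2 fold changes lay between -0.26 (*Nqo1*) and 0.14 (*Gsr*), 4 above and 6 below 0, where 50.1% of all genes tested were above it. Their median was -0.011, beside 0.00037 over all genes tested.

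The intervals bound the differences more tightly than the absence of calls does. For 9 of the 10 genes the 95% interval of the log2 fold change lay wholly inside -0.58 to 0.58, which held for 65.8% of all genes tested. The exception was *Nqo1*. The median standard error was 0.099 over the 10 genes and 0.13 over all genes tested.

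**Figure D1:**
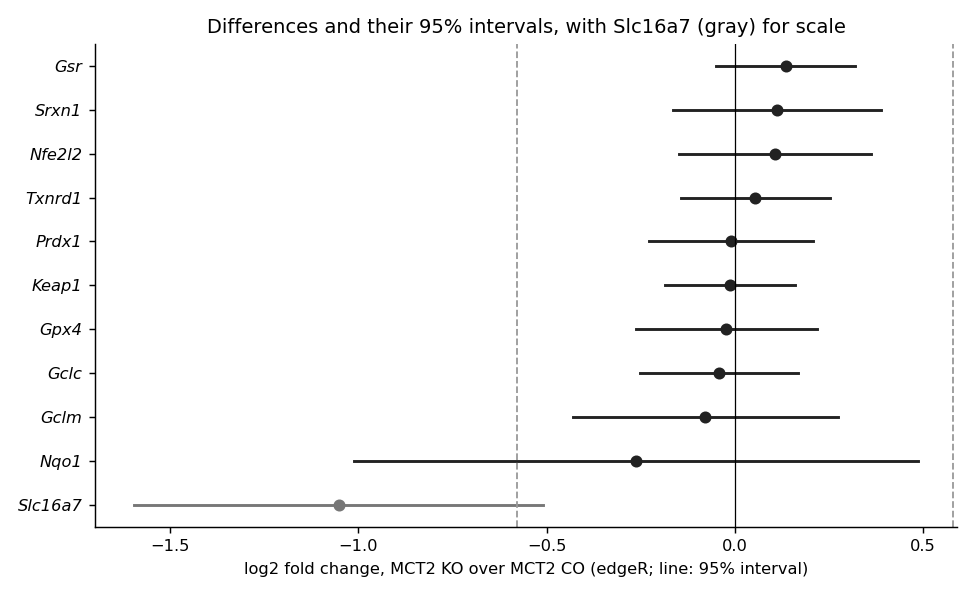
Log2 fold change of MCT2 KO over MCT2 CO (horizontal axis, edgeR) for the 10 genes and for *Slc16a7* in gray; lines are 95% intervals and dashed lines stand at -0.58 and 0.58. Every interval but those of *Nqo1* and *Slc16a7* stays between the dashed lines, and that of *Slc16a7* alone does not cross 0.

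*Nfe2l2* (ENSMUSG00000015839, chromosome 2 of GRCm38, 75675513 to 75704641, minus strand) was among the most abundant mRNAs of the preparations, above 97.5% of the genes tested by mean CPM. It measured 406, 390 and 329 CPM in MCT2 CO replicates 1 to 3 and 434, 373 and 405 CPM in MCT2 KO replicates 1 to 3. The lowest library was MCT2 CO replicate 3, the highest was MCT2 KO replicate 1, and the groups overlapped. MCT2 KO exceeded MCT2 CO by a log2 fold change of 0.11 (standard error 0.11, 95% interval -0.15 to 0.36, adjusted p = 0.786 by edgeR's quasi-likelihood test), which fell to 0.021 without MCT2 CO replicate 3.

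*Keap1* (ENSMUSG00000003308, chromosome 9, 21229730 to 21239361, minus strand), the sensor that holds Nrf2 back, varied least of the 10 genes. Its level was 62.5, 65.0 and 66.4 CPM in MCT2 CO and 64.2, 61.7 and 66.5 CPM in MCT2 KO. The highest library exceeded the lowest by 1.08-fold, and the log2 fold change of -0.012 had the narrowest interval, -0.18 to 0.16 (adjusted p = 0.970, edgeR). Per kb of merged exons, *Nfe2l2* counts exceeded *Keap1* counts by 6.12- to 8.03-fold in MCT2 CO and by 7.47- to 8.34-fold in MCT2 KO. An exact two-sided permutation test of the ratio gave p = 0.4, where 3 libraries against 3 allow no p below 0.1. The counts may include intron reads, so the size of this ratio is not that of the mRNAs alone.

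*Nqo1* (ENSMUSG00000003849, chromosome 8, 107388225 to 107403206, minus strand) encodes a quinone reductase and is a widely used reporter of Nrf2 activity. It was the lowest of the 10 genes, above 29.97% of the genes tested, and the most variable. The MCT2 CO libraries had 8.64, 7.92 and 17.7 CPM and the MCT2 KO libraries 6.88, 11.3 and 10.3 CPM. MCT2 CO replicate 3 was far above the other MCT2 CO libraries and above all MCT2 KO libraries. The group means of 11.4 ± 5.44 CPM (SD, n = 3) and 9.49 ± 2.31 CPM (SD, n = 3) gave a log2 fold change of -0.26 (standard error 0.33). Its 95% interval ran from -1.01 to 0.49, that is, from 0.496- to 1.40-fold (adjusted p = 0.825, edgeR) and was the widest of the 10. Without MCT2 CO replicate 3 the log2 fold change was 0.20, with the opposite sign.

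That library also had the highest summed level of fibroblast markers (3424 CPM, beside 1728 to 2264 CPM in the other 5 libraries) and the lowest of macrophage markers (5852 CPM, beside 6841 to 11175 CPM). MCT2 KO replicate 1, with the lowest *Nqo1*, had the highest macrophage marker sum. MCT2 CO replicate 2 had the next highest fibroblast sum (2264 CPM) and the next lowest macrophage sum (6841 CPM). Its *Nqo1*, at 7.92 CPM, was below that of every library but MCT2 KO replicate 1. The part of the marker differences in the *Nqo1* values was not tested.

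**Figure D2:**
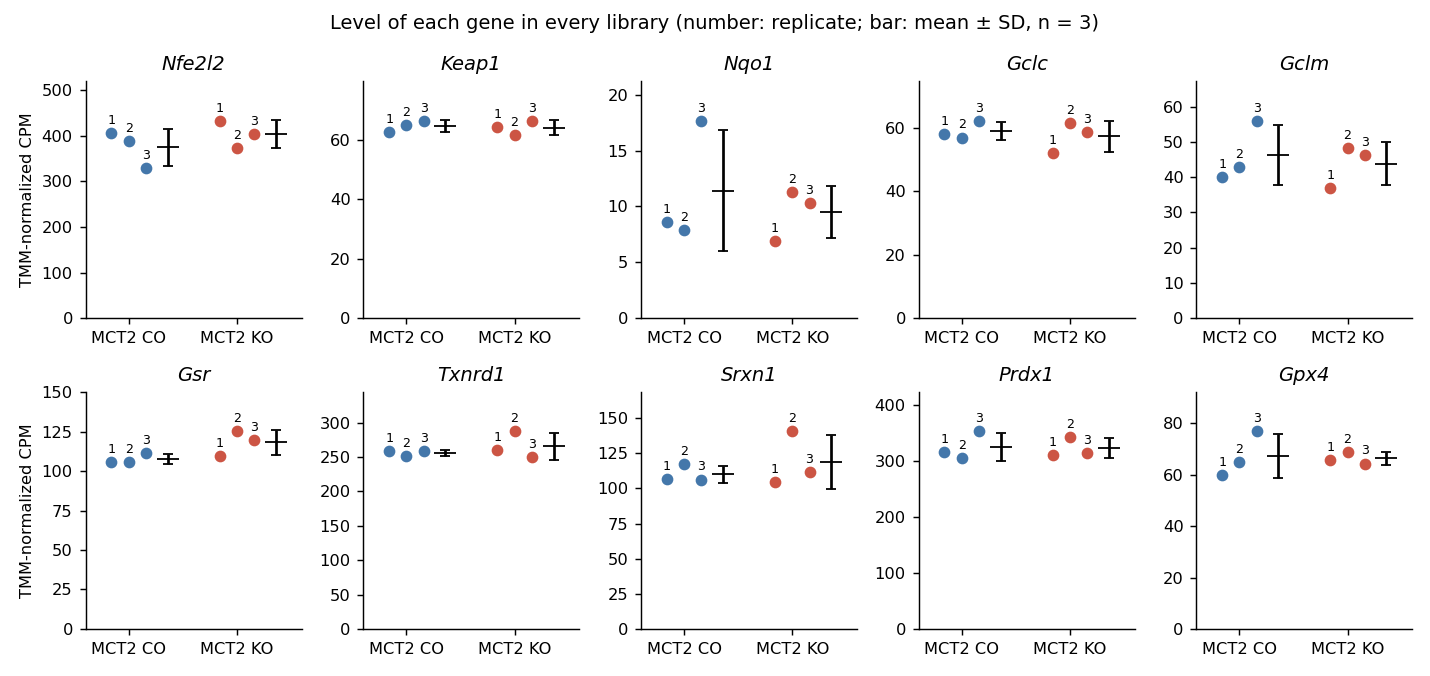
TMM-normalized CPM (vertical axes, from 0) of the 10 genes in each library, with replicate numbers beside the points and the mean ± SD (n = 3) to the right of each group. MCT2 CO replicate 3 stands out in *Nqo1* (17.7 CPM) and *Gclm* (56.1 CPM), MCT2 KO replicate 2 stands out in *Srxn1* (141 CPM), and the groups overlap in every panel.

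Glutamate-cysteine ligase makes the rate-limiting step of glutathione synthesis, with *Gclc* coding for the catalytic and *Gclm* for the modifier subunit. *Gclc* (ENSMUSG00000032350, chromosome 9, 77754535 to 77794485, plus strand) had 58.003, 57.0 and 62.4 CPM in MCT2 CO and 52.1, 61.6 and 58.7 CPM in MCT2 KO. Its libraries overlapped closely, with a log2 fold change of -0.041 (95% interval -0.25 to 0.17, adjusted p = 0.910, edgeR). *Gclm* (ENSMUSG00000028124, chromosome 3, 122245557 to 122270732, plus strand) had 40.1, 42.8 and 56.1 CPM in MCT2 CO and 37.0, 48.2 and 46.4 CPM in MCT2 KO. As with *Nqo1*, its highest library was MCT2 CO replicate 3 and its lowest MCT2 KO replicate 1. Its log2 fold change was -0.078 (95% interval -0.43 to 0.27, adjusted p = 0.896, edgeR) and became 0.082 without MCT2 CO replicate 3. Per kb of merged exons, *Gclc* counts exceeded *Gclm* counts by 1.86- to 2.41-fold in MCT2 CO and 2.11- to 2.35-fold in MCT2 KO (exact two-sided permutation test of the ratio, p = 0.9). Intron reads may be included in this ratio too.

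*Gsr* (ENSMUSG00000031584, chromosome 8, 33652523 to 33698163, plus strand) encodes glutathione reductase, which returns oxidized glutathione to its thiol form with NADPH. Of the 10 genes it had the smallest p. The MCT2 CO libraries had 106, 106 and 111 CPM, and the MCT2 KO libraries 110, 125 and 120 CPM. MCT2 KO replicates 2 and 3 were above every MCT2 CO library, and MCT2 KO replicate 1 was below MCT2 CO replicate 3. This log2 fold change of 0.14 (standard error 0.080) corresponds to 1.10-fold, with an interval of 0.966- to 1.25-fold (unadjusted p = 0.129 and adjusted p = 0.633 by edgeR's quasi-likelihood test). It ranked 2754 of 13485 genes by p, and leaving out each library in turn gave 0.094 to 0.20.

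*Txnrd1* (ENSMUSG00000020250, chromosome 10, 82833951 to 82897712, plus strand) encodes the cytosolic thioredoxin reductase, a selenoenzyme. It had 259, 251 and 258 CPM in MCT2 CO and 260, 287 and 250 CPM in MCT2 KO, so that only MCT2 KO replicate 2 left the range of 250 to 260 CPM. Its log2 fold change was 0.055 (95% interval -0.14 to 0.25, adjusted p = 0.866, edgeR). The spans of *Eid3* and *Gm47073*, both at 0 counts, overlap the *Txnrd1* span but none of its exons.

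*Srxn1* (ENSMUSG00000032802, chromosome 2, 152105516 to 152111376, plus strand) encodes sulfiredoxin, which repairs peroxiredoxins after overoxidation of their cysteine. The MCT2 CO libraries had 107, 117 and 106 CPM and the MCT2 KO libraries 105, 141 and 111 CPM. MCT2 KO replicate 2 was the highest and MCT2 KO replicate 1 the lowest of the 6 libraries. The log2 fold change of 0.11 (95% interval -0.16 to 0.39, adjusted p = 0.795, edgeR) rested on MCT2 KO replicate 2, and without it the value was -0.025.

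*Prdx1* (ENSMUSG00000028691, chromosome 4, 116685544 to 116700822, plus strand), the peroxiredoxin that Srxn1 and thioredoxin keep active, had 317, 305 and 353 CPM in MCT2 CO and 310, 343 and 315 CPM in MCT2 KO. Each group had 1 library clearly above the others, MCT2 CO replicate 3 and MCT2 KO replicate 2. The difference was a log2 fold change of -0.0099 (95% interval -0.23 to 0.21, adjusted p = 0.980, edgeR), the smallest of the 10 genes in size.

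*Gpx4* (ENSMUSG00000075706, chromosome 10, 80047166 to 80056439, plus strand) encodes the glutathione peroxidase that reduces lipid peroxides in membranes and protects against ferroptosis. It had 60.1, 65.1 and 76.9 CPM in MCT2 CO and 65.7, 68.9 and 64.4 CPM in MCT2 KO. The MCT2 KO libraries lay within the range of the MCT2 CO libraries. They gave a log2 fold change of -0.022 (95% interval -0.26 to 0.22, adjusted p = 0.960, edgeR).

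The genes moved together in part between libraries. In MCT2 CO replicate 1 and in MCT2 KO replicate 1, only 1 of the 10 was above its own mean. That gene was *Nfe2l2* in both, and the others were below their means, some by little. MCT2 CO replicate 3 was the highest library for 5 of the 10 genes (*Nqo1*, *Gclc*, *Gclm*, *Prdx1* and *Gpx4*) and the lowest for *Nfe2l2*. MCT2 KO replicate 2 was the highest for *Gsr*, *Txnrd1* and *Srxn1*, and was above the gene's own mean in 8 of the 10. MCT2 KO replicate 1 was the lowest for *Nqo1*, *Gclc*, *Gclm* and *Srxn1* and the highest for *Nfe2l2*. The median deviation of the 10 genes from their own means ran from -0.067 to 0.072 on the log2 scale in MCT2 CO and from -0.050 to 0.098 in MCT2 KO. The libraries highest in these enzymes are also those that stood apart on the principal components, and without both of them the log2 fold changes of the 10 genes were -0.055 to 0.12.

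**Figure D3:**
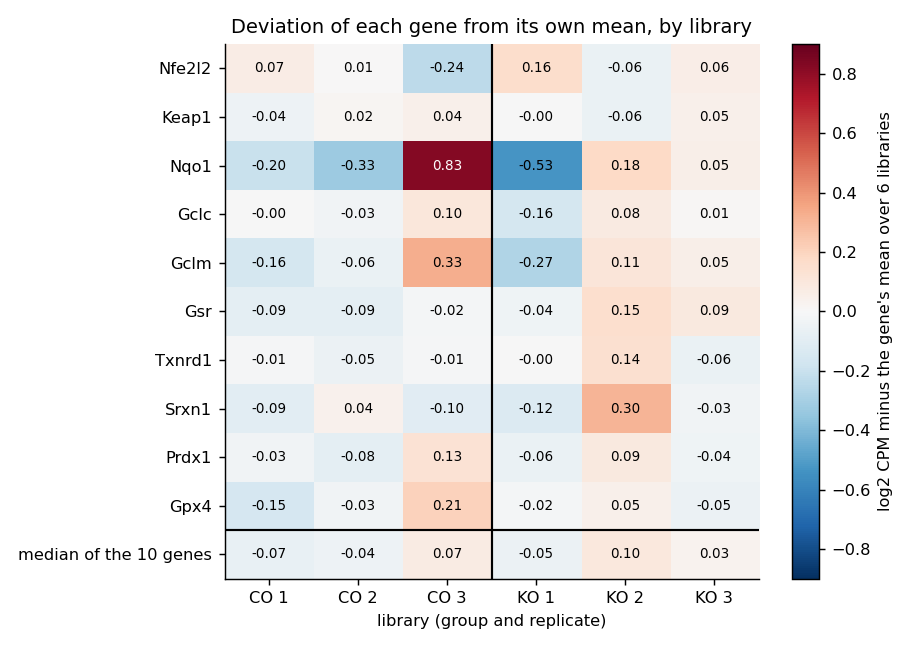
Log2 CPM minus the gene's own mean over the 6 libraries (color scale and printed values), with genes in rows, libraries in columns and the median of the 10 genes in the last row. The largest deviations are those of *Nqo1*, 0.83 in MCT2 CO replicate 3 and -0.53 in MCT2 KO replicate 1, whereas *Keap1* stays within 0.061 of its mean.

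Levels of different genes were compared as CPM per kb of merged exons. Listed gene lengths equal the whole gene span, so counts may include intron reads, which this division does not correct. The order between genes is therefore approximate, whereas comparisons of a gene between libraries do not depend on its length. The order in MCT2 CO was *Prdx1* (107 ± 8.25, SD, n = 3), *Nfe2l2* (98.8 ± 10.7), *Gsr* (39.1 ± 1.15), *Gpx4* (39.1 ± 5.03), *Srxn1* (39.0 ± 2.20), *Txnrd1* (36.1 ± 0.604), *Gclc* (15.7 ± 0.757), *Keap1* (13.8 ± 0.422), *Gclm* (7.36 ± 1.36) and *Nqo1* (7.35 ± 3.50). The 6-library ranges of neighbors did not overlap at 3 steps only, from *Nfe2l2* to *Gsr*, from *Txnrd1* to *Gclc* and from *Keap1* to *Gclm*. At the other steps the ranges overlapped, although *Srxn1* was above *Txnrd1*, and *Gclc* above *Keap1*, within each of the 6 libraries. *Prdx1* was above *Nfe2l2* in 2 of the 6 libraries, so these levels do not differ beyond their spread. In MCT2 KO, *Prdx1* (106 ± 5.95) and *Nfe2l2* (106 ± 7.98) were again highest and *Nqo1* (6.11 ± 1.49) lowest.

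**Figure D4:**
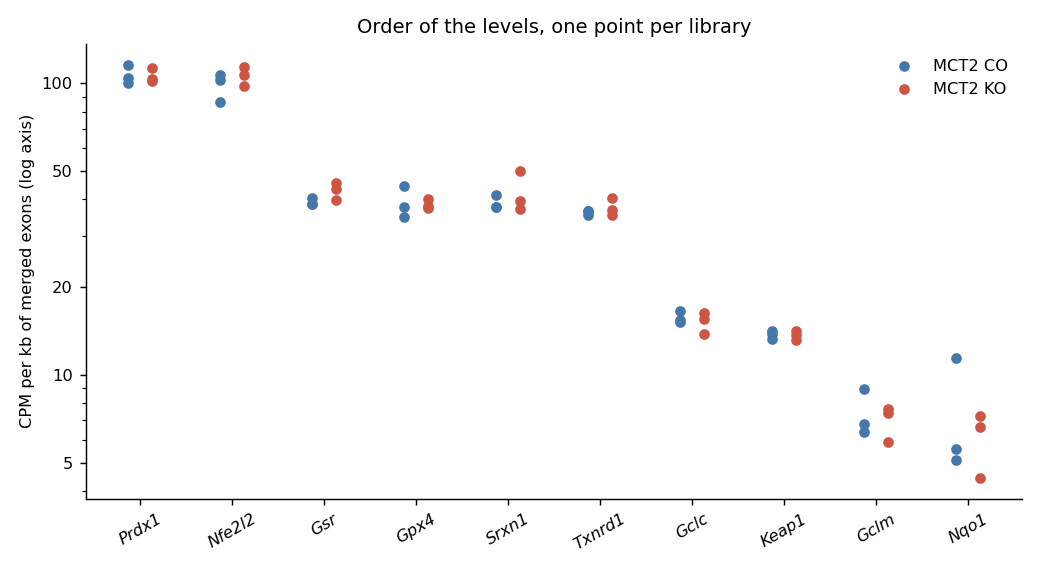
CPM per kb of merged exons (log axis) of the 10 genes, ordered by their MCT2 CO mean, with 1 point for each library. The genes fall on 4 levels by this measure, which intron reads may shift. These are near 100 (*Prdx1*, *Nfe2l2*), near 40 (*Gsr* to *Txnrd1*), near 15 (*Gclc*, *Keap1*) and near 7 (*Gclm*, *Nqo1*), with MCT2 CO and MCT2 KO points mixed in each.

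The rest of the pathway was described from gene lists in the same edgeR fit. Of 12 other regulators of Nrf2 or of its response elements, all were tested and 0 passed the thresholds. Their median log2 fold change was -0.041. MCT2 KO was wholly above MCT2 CO in 2 of the 12 and wholly below in 2, beside 7.07% and 8.77% of all genes tested. At an unadjusted p under 0.05 (edgeR) there were 0 higher and 2 lower genes, beside 3.77% and 5.6% of all genes tested. The lowest p values were those of *Mafk* and *Maff*, which encode small Maf proteins, the DNA-binding partners of Nrf2. *Mafk* had 142, 176 and 255 CPM in MCT2 CO and 134, 127 and 131 CPM in MCT2 KO (log2 fold change -0.55, standard error 0.19, adjusted p = 0.470, edgeR), and the difference shrank to -0.29 without MCT2 CO replicate 3. *Maff* had 238, 233 and 266 CPM in MCT2 CO and 230, 185 and 199 CPM in MCT2 KO (log2 fold change -0.26, standard error 0.11, adjusted p = 0.521, edgeR). For both genes every MCT2 KO library was below every MCT2 CO library, which held for 8.77% of all genes tested. *Mafg*, the other small Maf gene, named here after its values were seen, overlapped between the groups at 137, 145 and 135 CPM in MCT2 CO and 144, 129 and 137 CPM in MCT2 KO (log2 fold change -0.025, adjusted p = 0.940, edgeR). *Maff* and *Mafk* are also induced by stress, and immediate early and heat shock genes were lower in MCT2 KO in 18 of 20 cases, their summed level being 17700 to 21184 CPM in MCT2 CO and 14918 to 18121 CPM in MCT2 KO. The part of that difference in the Maf values was not tested. *Nfe2l1*, a relative of *Nfe2l2*, had 209, 211 and 173 CPM in MCT2 CO and 222, 222 and 228 CPM in MCT2 KO, without overlap (log2 fold change 0.18, standard error 0.098, adjusted p = 0.598, edgeR). Its difference was 0.093 without MCT2 CO replicate 3.

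Of 24 other Nrf2 target genes, 21 were tested and 0 passed the thresholds by edgeR or DESeq2. Log2 fold changes were above 0 in 17 and below 0 in 4, where 50.1% of all genes tested were above 0. The median of the 21 was 0.16, beside 0.00037 over all genes tested. At an unadjusted p under 0.05 there were 4 higher genes and 0 lower ones, against 3.77% and 5.6% of all genes tested. In 7 of the 21 every MCT2 KO library was above every MCT2 CO library, against 7.07% of all genes tested. Macrophage markers moved the same way, with 12 of 12 log2 fold changes above 0, 1 of them at an unadjusted p under 0.05 and 0 without overlap. Of 12 neutrophil markers, 8 were tested, 7 had log2 fold changes above 0, and in 6 every MCT2 KO library was above every MCT2 CO library. DESeq2 called 5 of these markers, beside 0.448% of all detected genes. *Ly6g* was at 0.123 CPM or less in every library, and the neutrophil markers summed to 83.6 to 104 CPM in MCT2 CO and 70.02 to 188 CPM in MCT2 KO. *Csf3r* made up most of this sum in every library. It had 93.0, 94.3 and 70.9 CPM in MCT2 CO and 120, 41.1 and 118 CPM in MCT2 KO, with overlap. The 6 markers without overlap were each below 21 CPM in every library, so the sum says little of them. Of 11 hypoxia-induced genes, 10 had log2 fold changes above 0, 4 were without overlap and DESeq2 called 2, beside the same 0.448%. These summed to 1156 to 1460 CPM in MCT2 CO and 1422 to 1643 CPM in MCT2 KO. The part of these 3 lists in the target values was not tested.

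*Slc7a11*, the cystine importer that feeds glutathione synthesis, had the smallest p of this list. It measured 64.9, 57.8 and 42.6 CPM in MCT2 CO and 86.3, 83.6 and 70.1 CPM in MCT2 KO, without overlap. The log2 fold change was 0.54 (standard error 0.16, 95% interval 0.17 to 0.90, adjusted p = 0.429 by edgeR's quasi-likelihood test), with 0.38 to 0.67 when each library was left out in turn. *Pgd*, an NADPH-producing dehydrogenase of the pentose phosphate pathway, had 147, 155 and 159 CPM in MCT2 CO and 183, 188 and 167 CPM in MCT2 KO (log2 fold change 0.23, standard error 0.082, adjusted p = 0.489, edgeR). *Abcc1*, an exporter of glutathione conjugates, had 97.4, 99.99 and 92.9 CPM in MCT2 CO and 108, 139 and 109 CPM in MCT2 KO (log2 fold change 0.29, standard error 0.11, adjusted p = 0.498, edgeR), and the difference was 0.16 without MCT2 KO replicate 2. *Pgd* and *Abcc1* did not overlap between the groups either.

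*Hmox1*, the heme oxygenase gene and a classic Nrf2 and Bach1 target, was chosen after its values were seen, because it varied among the libraries more than between the groups. It had 102, 125 and 193 CPM in MCT2 CO and 131, 221 and 170 CPM in MCT2 KO, with the highest value of each group in the library that stood apart. Its log2 fold change was 0.31 (95% interval -0.28 to 0.91, adjusted p = 0.732, edgeR), and leaving out each library in turn gave 0.10 to 0.62. *G6pdx*, the first enzyme of the pentose phosphate pathway, had 0 counts in all 6 libraries, and all of its exons lie inside the span of *Ikbkg*, so this table does not measure it. *Ftl1* was tested, but 26.5% of its exons lie inside the span of *Gm10252*, so it may be counted only in part.

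Of 33 other genes of glutathione, thioredoxin, peroxide and superoxide handling, 31 were tested and 0 passed the thresholds. There were 15 log2 fold changes above 0 and 16 below it, with a median of -0.0080. The untested genes, *Gpx8* and *Chac2*, were at 0 counts and also lie wholly inside the spans of other genes. Tested genes can overlap too: 86.4% of the exons of *Gss* lie inside the span of *Acss2*, and 19.1% for *Prdx5* and 17.3% for *Prdx2* lie inside other spans. These genes may be counted only in part. *Msrb1*, a selenoprotein that repairs oxidized methionine, had 45.5, 42.2 and 39.8 CPM in MCT2 CO and 64.5, 62.7 and 54.95 CPM in MCT2 KO. It ranked 19 of 13485 genes by p, and its log2 fold change was 0.51 (95% interval 0.29 to 0.73, standard error 0.095, adjusted p = 0.370 by edgeR's quasi-likelihood test). With DESeq2 on all detected genes its adjusted p was 0.00718, while its log2 fold change of 0.53 stayed below the threshold of 0.58.

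*Sod3*, the extracellular superoxide dismutase, had 8.07, 8.88 and 9.78 CPM in MCT2 CO and 6.16, 5.62 and 6.71 CPM in MCT2 KO (log2 fold change -0.53, standard error 0.14, adjusted p = 0.408, edgeR). Its values are given beside those of the fibroblast markers above, which were lower in MCT2 KO in 8 of 8 genes. The part of the cells that carry these markers was not tested. *Glrx*, a glutaredoxin that removes glutathione from proteins, had 37.3, 43.8 and 38.4 CPM in MCT2 CO and 49.7, 47.1 and 53.5 CPM in MCT2 KO (log2 fold change 0.33, standard error 0.096, adjusted p = 0.426, edgeR). For *Msrb1*, *Sod3* and *Glrx* the groups did not overlap. Over the list, MCT2 KO was wholly above MCT2 CO in 3 of the 31 genes and wholly below in 1, beside 7.07% and 8.77% of all genes tested, so no excess is read from this.

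**Figure D5:**
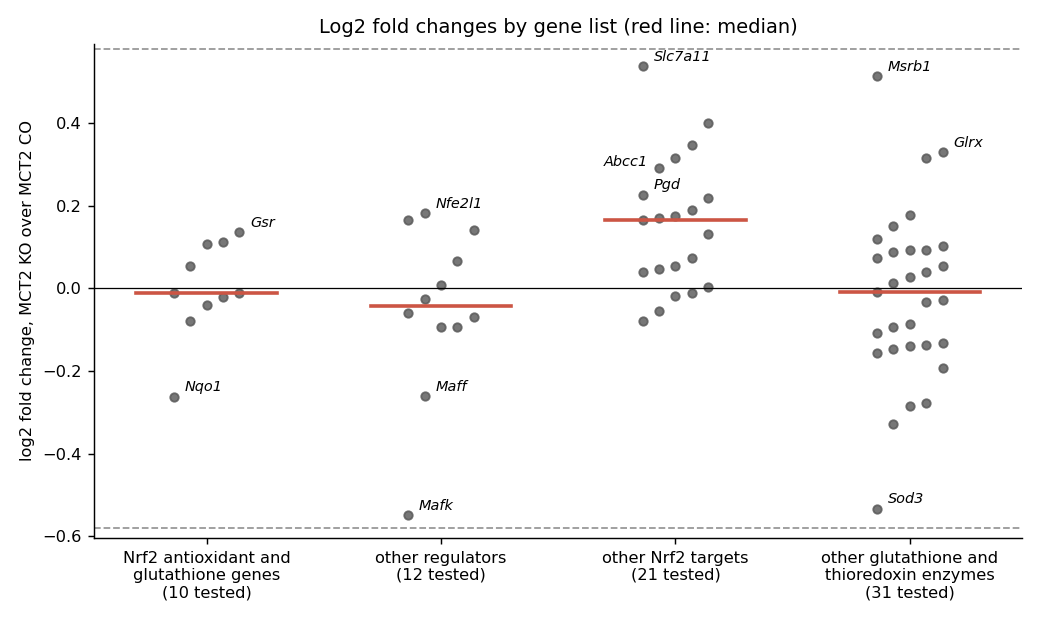
Log2 fold change of MCT2 KO over MCT2 CO (vertical axis) of each tested gene, by list, with the median in red and dashed lines at -0.58 and 0.58. The medians are -0.011, -0.041, 0.16 and -0.0080 from left to right, and no gene of the lists reaches a dashed line.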

How the data were processed

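CD11b+ cells of TC1 tumors were profiled by poly-A RNA-seq with a stranded kit in 3 MCT2 CO and 3 MCT2 KO libraries. Per the labels and the methods, the authors screened reads with FastQC 0.12.0 and MultiQC 1.28, aligned them with STAR 2.7.11b to GRCm38, and deposited unnormalized featureCounts 2.1.1 counts. The annotation release and strand setting are not given in the sources used here. Listed gene lengths equal the whole gene span, so reads in introns may have been counted. Genes inside another gene's span, also one on the opposite strand (*G6pdx* in *Ikbkg*), can be at 0. Listed starts match GENCODE M21 on GRCm38 for 2.36% of shared identifiers, and span lengths for 98.1%. Most listed starts are therefore not positions on GRCm38, the build that the labels name. Positions, merged exon lengths and exon overlaps come from GENCODE M21 by Ensembl identifier, and the annotation behind the counts may differ from it. No exon of the 10 genes lies inside another listed gene.

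The deposited counts were analysed with R 4.3.3, edgeR 4.0.16, limma 3.58.1 and DESeq2 1.42.0. filterByExpr (minimum count 10, total 15) kept 13485 genes. TMM normalization and edgeR's quasi-likelihood test without covariates followed, with Benjamini–Hochberg adjustment over all genes kept. Standard errors and 95% intervals derive from the F statistic and its degrees of freedom. The study's thresholds were used: 0.05 for the adjusted p, 0.58 for the size of the log2 fold change. Log2 CPM used a prior count of 2. The procedure was tested on simulated counts with known changes. No libraries of a group were alike enough to be 1 library deposited again.

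The 10 genes and the other lists were chosen with earlier results of these data known. Named genes were the 10 genes, *Slc16a7*, defining macrophage markers and, from each of the 3 other pathway lists, every called gene and the 3 with the smallest p. Alternatives were DESeq2 on the same and on all detected genes, limma-voom, other normalizations, filters and thresholds, a replicate block and each library left out.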

Additional observations from a re-analysis of the deposited data

How the results depend on the processing

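None of the 10 genes was called under any of 15 alternatives, where the smallest adjusted p was 0.552, and the other pathway lists stayed at 0 calls. The median log2 fold change of the 10 genes ran from -0.037 to 0.071 over these alternatives. Over all genes, 0 were called, also by limma-voom, but DESeq2 called 79 of the genes that edgeR tested and 83 of all detected genes, and edgeR called 2 of all detected genes. Leaving out each library in turn gave 0 to 2 calls (2 without MCT2 KO replicate 2), and leaving out both libraries that stand apart, chosen after seeing the data, gave 10. *Slc16a7* passed under both DESeq2 fits (log2 fold changes -1.05 and -1.04).

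Directions near 0 turned. Over the fits without 1 library, the log2 fold changes ran from -0.035 to 0.017 for *Keap1*, -0.47 to 0.20 for *Nqo1*, -0.093 to 0.034 for *Gclc*, -0.17 to 0.082 for *Gclm*, -0.0040 to 0.11 for *Txnrd1*, -0.025 to 0.21 for *Srxn1*, -0.056 to 0.054 for *Prdx1* and -0.098 to 0.084 for *Gpx4*. Without both libraries that stand apart, *Keap1* had 0.035, *Nqo1* 0.055, *Gclm* 0.0082, *Srxn1* -0.051, *Prdx1* 0.0066 and *Gpx4* 0.056. With DESeq2 on all detected genes *Prdx1* had 0.0022. The direction of *Nfe2l2* and *Gsr* did not turn.

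The replicate numbers of the titles give no pairing: deviations of same-numbered libraries correlated at 0.25, -0.34 and -0.25 over 500 genes, and 2 of 6 libraries correlated best with their own number. With the replicate block, 0 genes were called. *Nqo1* had the fewest counts of the 10 genes, 164 to 470 per library, and the widest interval.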
